A study of Homo sapiens with 64 samples.

Results

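Cholesterol handling in NCI-H295R cells was followed through 10 genes: SCARB1, NPC1, NPC2, SOAT1, LIPE, LIPA, NCEH1, ABCA1, ABCG1 and STARD3. They were chosen by name for their roles in the uptake, ester storage and efflux of cholesterol, and are 10 of the 26364 genes counted. Each of the 10 passed the filter on low counts. NCI-H295R is a steroid-producing cell line from a human adrenocortical carcinoma. The study measured messenger RNA in it after knockdown of NNT, the inner mitochondrial membrane enzyme nicotinamide nucleotide transhydrogenase, which makes NADPH.

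Adrenal cortical cells make steroids from cholesterol. They take it up from lipoproteins through the scavenger receptor encoded by SCARB1 or by endocytosis and the lysosome, and keep a reserve as esters in lipid droplets. SOAT1 makes the esters at the endoplasmic reticulum, the lipases LIPE and NCEH1 break them down again, LIPA does so in the lysosome, and ABCA1 and ABCG1 pass surplus cholesterol out of the cell. SOAT1 is the target of mitotane, a drug used in adrenocortical carcinoma.

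Each group consisted of NCI-H295R cells. There were 4 libraries with an shRNA against NNT, 3 with a scrambled shRNA, 3 each with the NNT siRNAs called siRNA-2 and siRNA-3, and 3 with a scrambled siRNA; siRNA cells were taken 72 h after transfection. The protocol text names 3 replicates a group, but 4 libraries bear the NNT shRNA label, and all 4 were used. Whether the shRNA cells were a clone or a mixed culture is not given in the sources used here, nor is the time since the shRNA was introduced. Libraries are named below by group and title code, such as 18-3. The meaning of the codes is not given. No label states that libraries of 1 group stem from separate cultures, and p-values therefore reflect library-to-library spread that may be technical.

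The 16 libraries held 20148231 to 43992833 gene counts. NNT stood at 371 ± 49.9 CPM (library-scaled counts; SD, n = 3) with the scrambled shRNA and 31.8 ± 2.95 CPM (SD, n = 4) with the NNT shRNA. It stood at 337 ± 35.7 CPM with the scrambled siRNA, 157 ± 95.2 CPM with siRNA-2 and 38.6 ± 8.28 CPM with siRNA-3 (SD, n = 3 each). With siRNA-2 the NNT level was 233 CPM in library 11-12, 187 CPM in 16-1 and 49.9 CPM in 11-1, and it did not pass against the control (adjusted p = 0.0777). Every adjusted p given here is from a quasi-likelihood test in edgeR unless another tool is named. Library 11-1 of siRNA-2 also had the highest share of reads in no gene, 16.5% against 11.3% in the library with the lowest share. The 8 adrenocortical markers, among them NR5A1, STAR and CYP11A1, were all measured, at a summed 1324 to 2396 CPM per library. PTPRC and MARCO, which mark leukocytes and macrophages, were at 0 in 15 of 16 libraries each, and the summed level of the 5 macrophage markers was at most 1.87 CPM.

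Of the 10 genes, 4 differed among the 5 groups at an adjusted p under 0.05: NCEH1 (adjusted p = 0.00264), NPC2 (0.0103), SOAT1 (0.0104) and LIPA (0.0149). Of all 15201 genes tested, 18.1% did so in the same test. The promoters of these 4 genes are shown because their levels separated groups. Each runs 5′ to 3′ on the gene's strand, 300 bases in RefSeq's annotation of GRCh38.p14, from 250 bases before the start site to 50 after it; such a window was at hand for 8 of the 10 genes. Capitals mark matches, on either strand, to the CCAAT box (CCAAT), the GC box (GGGCGG) and the SF-1 type site (CAAGGNCA).
SOAT1, chr1:179293547-179293846, plus strand: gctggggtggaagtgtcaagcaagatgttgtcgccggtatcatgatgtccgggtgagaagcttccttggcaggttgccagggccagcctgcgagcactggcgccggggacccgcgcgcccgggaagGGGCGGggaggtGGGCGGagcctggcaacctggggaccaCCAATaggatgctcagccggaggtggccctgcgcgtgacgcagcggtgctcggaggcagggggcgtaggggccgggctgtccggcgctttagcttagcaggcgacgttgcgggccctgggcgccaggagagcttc
LIPA, chr10:89251726-89252025, minus strand: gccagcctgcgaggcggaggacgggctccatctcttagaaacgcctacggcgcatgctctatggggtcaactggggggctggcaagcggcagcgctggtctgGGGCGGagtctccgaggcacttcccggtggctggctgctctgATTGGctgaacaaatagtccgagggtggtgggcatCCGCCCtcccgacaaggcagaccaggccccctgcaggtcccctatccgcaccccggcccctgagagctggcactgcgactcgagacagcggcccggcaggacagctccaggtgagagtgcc
NCEH1, chr3:172711018-172711317, minus strand: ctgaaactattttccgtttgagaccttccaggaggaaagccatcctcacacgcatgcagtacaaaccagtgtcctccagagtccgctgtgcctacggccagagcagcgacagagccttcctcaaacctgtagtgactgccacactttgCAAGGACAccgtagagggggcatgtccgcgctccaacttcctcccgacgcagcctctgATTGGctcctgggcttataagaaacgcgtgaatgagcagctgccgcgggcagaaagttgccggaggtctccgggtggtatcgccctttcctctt
NPC2, chr14:74493463-74493762, minus strand: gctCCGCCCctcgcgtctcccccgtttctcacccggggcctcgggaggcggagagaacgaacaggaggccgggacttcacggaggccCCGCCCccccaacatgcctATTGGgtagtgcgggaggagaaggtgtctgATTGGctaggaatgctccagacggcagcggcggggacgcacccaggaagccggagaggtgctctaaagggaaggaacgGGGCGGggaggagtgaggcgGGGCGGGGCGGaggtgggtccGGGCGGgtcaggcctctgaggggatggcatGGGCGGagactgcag

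Positions are those of a match's first base, counted from the start site. A CCAAT box stood at -85 in SOAT1, -106 in LIPA, -44 in NCEH1, and -144 and -114 in NPC2, and 34.6% of all 35116 promoter windows held one. GC boxes stood at -124 and -112 in SOAT1 and at -148 and -71 in LIPA, none stood in NCEH1, and NPC2 held 7, of which those at -16 and -11 overlapped; 45% of all windows held at least 1. A match to the SF-1 type letters, named for the steroidogenic factor NR5A1, stood at -102 in NCEH1 and in none of the other 7 windows, against 5.28% of all windows. It read CAAGGACA. The search allowed any base at N, and whether NR5A1 binds there was not tested. The ABCA1 window held the E-box (CACGTG) at -147 and the TATA box (TATAAA) at -31, and none of the other 7 windows held either; 7.26% and 11.5% of all windows did. None of the 8 windows held the sterol regulatory letters TCACNCCAC, found in 1.13% of all windows. The start site used for LIPA lay 283 bases, and that for NCEH1 151 bases, from the start of the gene's principal transcript in GENCODE.

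SCARB1, the selective uptake receptor for HDL cholesterol (chromosome 12, 124776856 to 124882668, minus strand, GRCh38; 13 exons in its principal transcript), was by far the most abundant of the 10. Per kilobase of exon its mean level over all libraries was 306 CPM, ahead of SOAT1 at 65.9, NPC2 at 33.5, NCEH1 at 13.3, LIPE at 12.4, LIPA at 12.0, STARD3 at 10.1, NPC1 at 9.47, ABCA1 at 2.4 and ABCG1 at 0.741 CPM per kilobase. SCARB1 lay above 99.95% of the genes tested by mean CPM. The uptake receptor and the esterifying enzyme were thus the highest of the set, and both efflux transporters the lowest.

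**Figure D1:**
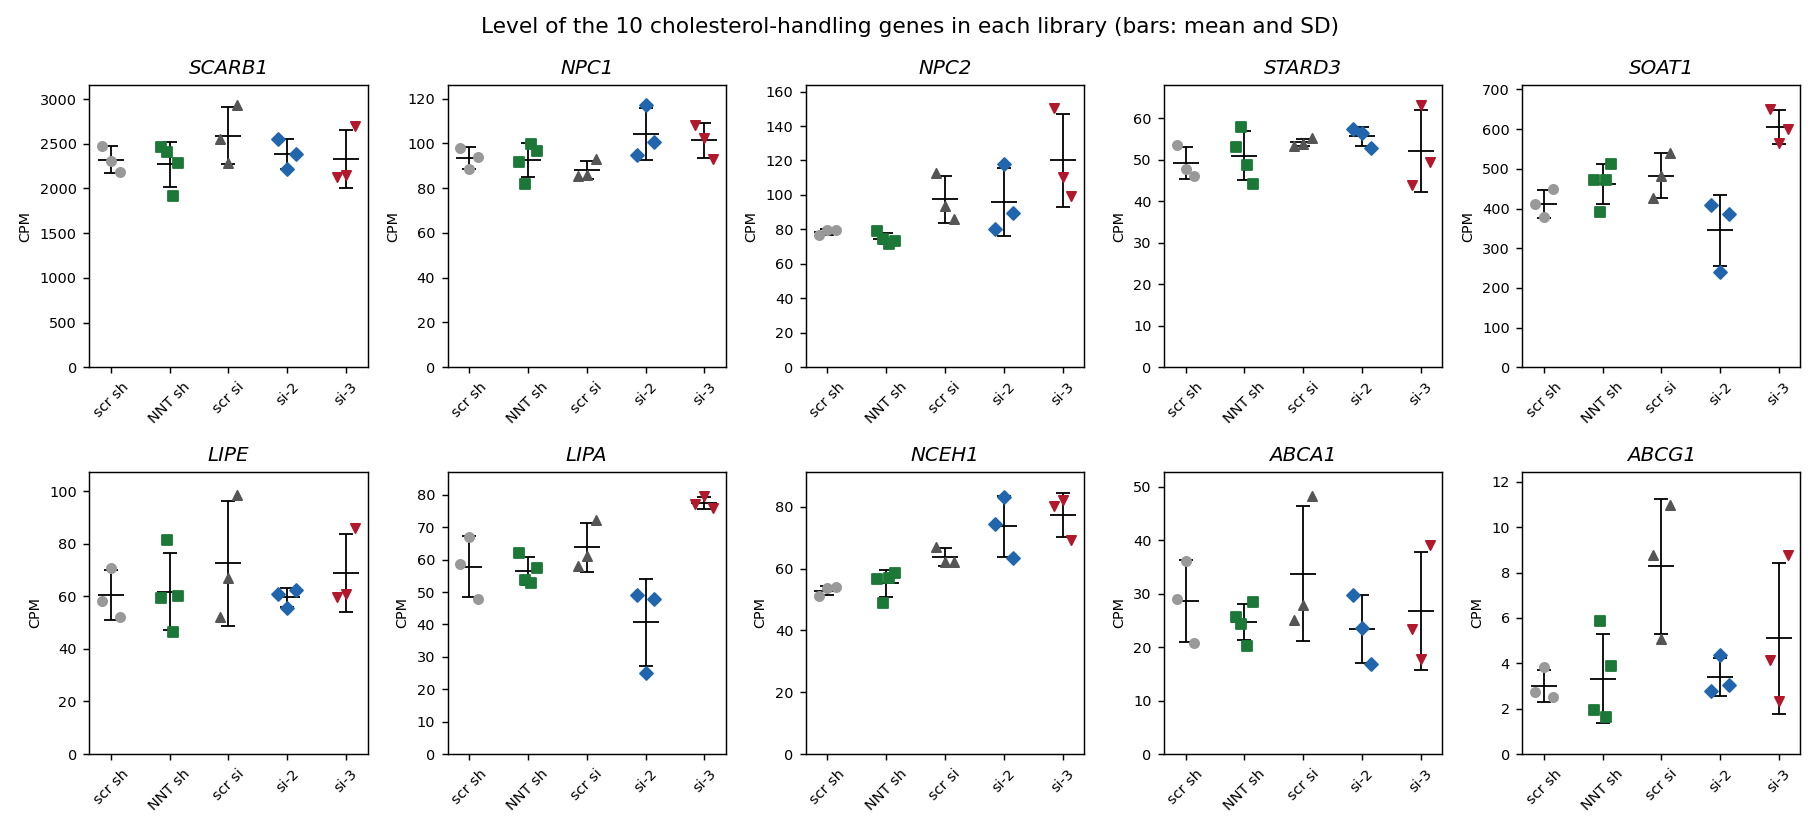
Level of each of the 10 genes (CPM, linear axes from 0) in every library of the scrambled shRNA (scr sh), NNT shRNA (NNT sh), scrambled siRNA (scr si), NNT siRNA-2 (si-2) and NNT siRNA-3 (si-3) groups; points are libraries, bars the mean and SD. SOAT1 and LIPA show all siRNA-2 points below and all siRNA-3 points above the scrambled siRNA points, while SCARB1, LIPE and STARD3 overlap across groups. Of all genes, 22.4% did not overlap between siRNA-2 and the scrambled siRNA, and 21.1% between siRNA-3 and the scrambled siRNA.

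SCARB1 stood at 2468, 2412, 1915 and 2280 CPM in the NNT shRNA libraries 18-3, 19-2, 2-3 and 24-2, and at 2480, 2302 and 2185 CPM in the scrambled shRNA libraries 18-3, 19-2 and 24-2. It stood at 2551, 2219 and 2387 CPM with siRNA-2 (11-12, 11-1, 16-1), at 2129, 2149 and 2698 CPM with siRNA-3 (11-1, 23-5, 30-11), and at 2558, 2286 and 2928 CPM with the scrambled siRNA (16-1, 23-5, 30-11). The same order of libraries is kept for every gene below. All groups overlapped, and the highest library of 16 was only 1.53 times the lowest. No comparison gave a call for SCARB1: its log2 fold change was -0.03 (SE 0.11) with the shRNA, -0.12 (SE 0.11) with siRNA-2 and -0.16 (SE 0.11) with siRNA-3, and the 5-group test had an adjusted p of 0.588. The 95% interval with the shRNA was -0.25 to 0.19.

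Within the lysosome, LIPA encodes the acid lipase that frees cholesterol from the esters of endocytosed lipoproteins (chromosome 10, 89213569 to 89414557, minus strand, GRCh38; 10 exons). LIPA separated the NNT siRNAs: its level under siRNA-2 was 1.91-fold below that under siRNA-3, a log2 fold change of -0.93 (SE 0.18), with an adjusted p of 0.00272. Its level was 49.0, 25.1 and 47.7 CPM in the siRNA-2 libraries, 77.2, 79.5 and 76.0 CPM in the siRNA-3 libraries and 58.1, 61.1 and 72.4 CPM in the scrambled siRNA libraries. All siRNA-2 libraries were below, and all siRNA-3 libraries above, every scrambled siRNA library. Of all genes, 22.4% did not overlap between siRNA-2 and this control, and 21.1% between siRNA-3 and this control. The share of all genes with both patterns was not counted. Group means were 40.6 ± 13.4, 77.6 ± 1.79 and 63.9 ± 7.54 CPM (SD, n = 3 each).

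Against the scrambled siRNA, neither NNT siRNA gave a call for LIPA: the log2 fold change was -0.65 with siRNA-2 (SE 0.18, adjusted p = 0.0624) and 0.28 with siRNA-3 (SE 0.18, adjusted p = 0.426). The siRNA-2 value was called without library 11-12 (-0.80, adjusted p = 0.0286), with no filter on low counts (-0.65, adjusted p = 0.0249) and by DESeq2 (-0.66, adjusted p = 0.013), and was -0.40 without library 11-1. In shRNA cells LIPA stood at 62.0, 53.6, 52.8 and 57.5 CPM with the NNT shRNA and at 58.5, 66.9 and 48.0 CPM with the scrambled shRNA. These overlapped, with a log2 fold change of -0.03 (SE 0.16, 95% interval -0.38 to 0.31).

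NPC2, the small lysosomal protein that carries freed cholesterol to NPC1 (chromosome 14, 74476192 to 74494177, minus strand, GRCh38; 5 exons), differed among the 5 groups. It stood at 79.2, 74.4, 71.5 and 73.5 CPM with the NNT shRNA and at 76.8, 79.6 and 79.4 CPM with the scrambled shRNA. It stood at 80.4, 118 and 89.5 CPM with siRNA-2, at 151, 110.5 and 99.4 CPM with siRNA-3 and at 113, 93.3 and 86.3 CPM with the scrambled siRNA. Every siRNA library was above every shRNA library, and the 3 siRNA groups overlapped. The share of all genes parted in this way was not counted. Between the scrambled groups alone, 24.2% of all genes did not overlap. Delivery, time and other differences between shRNA and siRNA cells cannot be told apart. No pair of groups tested gave a call, and the NNT siRNA groups were not tested against the shRNA groups. Between the scrambled controls NPC2 was 0.31 on the log2 scale higher in siRNA cells (SE 0.14, adjusted p = 0.287). The siRNA-3 group differed from its control by 0.30 (SE 0.14, adjusted p = 0.282) and siRNA-2 from siRNA-3 by -0.32 (SE 0.14, adjusted p = 0.139). Without siRNA-2 library 11-1 the last was -0.50 and was called (adjusted p = 0.0381).

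NPC1, the lysosomal membrane protein that takes cholesterol from NPC2 and passes it on (chromosome 18, 23506184 to 23586898, minus strand, GRCh38; 25 exons), stood at 85.6, 85.8 and 92.9 CPM with the scrambled siRNA. It stood at 94.7, 117 and 100.5 CPM with siRNA-2 and at 108, 102.5 and 93.1 CPM with siRNA-3. All 6 NNT siRNA libraries thus lay above all 3 controls, the closest pair being 93.1 and 92.9 CPM. The difference did not pass: the mean of both siRNAs was 0.22 on the log2 scale above the control (SE 0.08, adjusted p = 0.254). Of all genes tested, 4.49% had both siRNAs' libraries on one side of the controls. In shRNA cells NPC1 stood at 91.7, 82.0, 99.7 and 96.4 CPM with the NNT shRNA and at 98.1, 88.4 and 93.9 CPM with the scrambled shRNA, a log2 fold change of -0.02 (SE 0.09, 95% interval -0.20 to 0.17). The 2 highest libraries of NPC1, and of NPC2, were the siRNA-2 and siRNA-3 libraries coded 11-1. Over all 15201 genes tested, the deviations of these 2 libraries from their group means had an r of -0.019.

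STARD3, a sterol-binding protein of late endosomes that moves cholesterol at contacts with the endoplasmic reticulum (chromosome 17, 39637065 to 39663484, plus strand, GRCh38; 15 exons), had the highest 5-group p of the 10. It ranged from 43.8 CPM in siRNA-3 library 11-1 to 63.1 CPM in siRNA-3 library 23-5, so that 1 group held both the lowest and the highest of the 16 libraries. Its 5-group test had an adjusted p of 0.694, and its log2 fold changes were 0.05 (SE 0.11) with the shRNA, 0.04 (SE 0.12) with siRNA-2 and -0.06 (SE 0.12) with siRNA-3.

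SOAT1, which esterifies cholesterol with fatty acids for storage (chromosome 1, 179293714 to 179358680, plus strand, GRCh38; 16 exons), followed the same order of groups as LIPA in siRNA cells. It stood at 408, 241 and 385 CPM with siRNA-2, at 651, 566 and 599.9 CPM with siRNA-3 and at 426, 481 and 540 CPM with the scrambled siRNA. Again every siRNA-2 library was below and every siRNA-3 library above all 3 controls, where 22.4% and 21.1% of all genes did not overlap. The SOAT1 level under siRNA-2 was 1.76-fold below that under siRNA-3, with a log2 fold change of -0.81 (SE 0.15), an adjusted p of 0.00221 and group means of 345 ± 90.4 and 606 ± 42.6 CPM (SD, n = 3 each). In bulk RNA, fewer cells that express a gene and less of its RNA per cell cannot be told apart.

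Against the scrambled siRNA the SOAT1 difference was -0.48 with siRNA-2 (SE 0.15, adjusted p = 0.0917) and 0.33 with siRNA-3 (SE 0.15, adjusted p = 0.257), and neither passed. The siRNA-2 value was called without library 11-12 (-0.62, adjusted p = 0.0366), with no filter on low counts (-0.49, adjusted p = 0.049) and by DESeq2 (-0.49, adjusted p = 0.0383), and was -0.28 without library 11-1, the one in which NNT was lowest among siRNA-2 libraries. In shRNA cells SOAT1 stood at 472, 391, 472 and 513 CPM with the NNT shRNA and at 410, 378 and 449 CPM with the scrambled shRNA. These overlapped, with a log2 fold change of 0.17 (SE 0.14, 95% interval -0.13 to 0.46). NNT itself fell in those cells, with a log2 fold change of -3.54 (SE 0.32) and an adjusted p of 2.36e-05.

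Between the siRNAs, SOAT1 and LIPA passed in each leave-out of 1 library of the 2 groups and under each of the 7 other settings tried. Leaving out siRNA-2 library 11-1 gave the values nearest 0, -0.61 for SOAT1 (adjusted p = 0.00463) and -0.68 for LIPA (adjusted p = 0.0033). Across all 16 libraries the log2 levels of SOAT1 and LIPA had a Pearson r of 0.881, which was 0.738 without library 11-1 of siRNA-2 (15 libraries) and 0.71 for deviations from the group means. The points share libraries, depth and scaling, and the r is a description only.

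**Figure D2:**
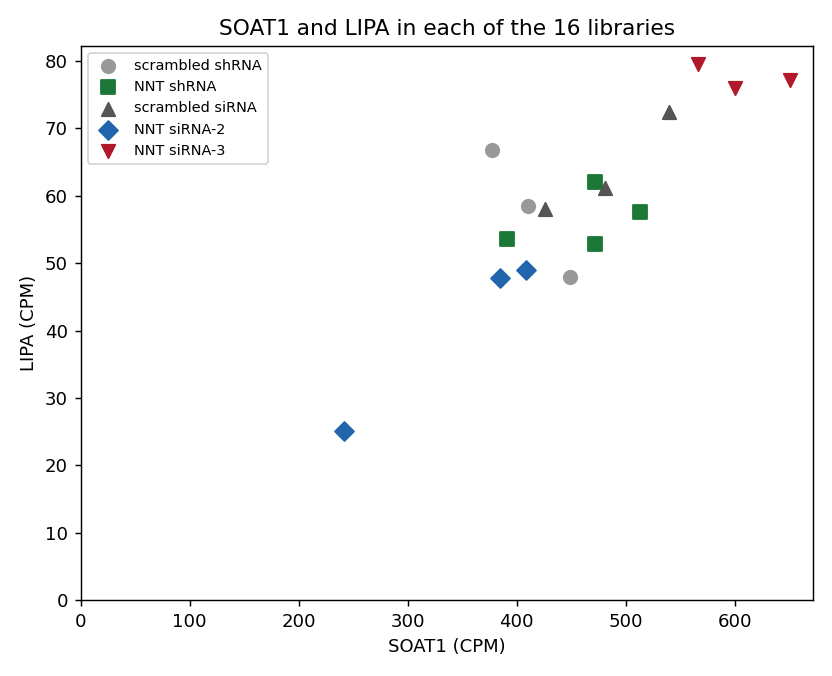
Level of LIPA against that of SOAT1 (both in CPM, axes from 0) in each of the 16 libraries, marked by group. The siRNA-3 libraries lie at the top right, at 566 to 651 CPM of SOAT1, and siRNA-2 library 11-1 lies apart at the lower left, at 241 CPM of SOAT1 and 25.1 CPM of LIPA.

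Markers of cell identity moved between the same groups. The summed level of the 8 adrenocortical markers ran from 1523 to 1607 CPM under siRNA-2, from 2175 to 2396 CPM under siRNA-3 and from 1457 to 2027 CPM in the siRNA controls, and 4 of the 8 were called lower with siRNA-2 than with siRNA-3, where 7.05% of all genes were called lower and 14.4% in either direction. The summed level of 6 chromaffin or neural markers was 57.3 to 71.6, 33.0 to 43.9 and 43.9 to 50.3 CPM in the same order; the 3 tested, CHGA, CHGB and SYP, were called higher under siRNA-2 than under siRNA-3, while TH, DBH and PNMT, which make catecholamines, were at 0 in 12, 13 and 16 of 16 libraries. COL1A1 was the 1 fibroblast marker tested and was also called higher with siRNA-2. The part of these shifts in the SOAT1 and LIPA differences was not tested.

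The genes whose log2 levels were most like those of SOAT1 over 16 libraries, among 10153 genes of sufficient level, were PPP6C, the catalytic subunit of protein phosphatase 6 (r = 0.949), CD2AP, an adaptor of the actin cytoskeleton (0.944), and LRRC58 (0.935). Most like LIPA were RAB1A and RAB6A, small GTPases of traffic through the Golgi (0.954 and 0.948), and the retinol dehydrogenase RDH11 (0.94). Without siRNA-2 library 11-1 these r values were 0.829 to 0.896. PPP6C stood at 207 ± 45.6, 320.4 ± 14.2 and 277 ± 14.3 CPM with siRNA-2, siRNA-3 and the scrambled siRNA, and RDH11 at 85.2 ± 27.1, 169.9 ± 14.9 and 133 ± 3.49 CPM (SD, n = 3 each), the order of groups seen for SOAT1 and LIPA.

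NCEH1, a neutral cholesterol ester hydrolase of the endoplasmic reticulum (chromosome 3, 172630249 to 172711218, minus strand, GRCh38; 5 exons), had the smallest 5-group p of the 10. It stood at 56.5, 48.7, 57.0 and 58.6 CPM with the NNT shRNA and at 51.2, 53.6 and 53.9 CPM with the scrambled shRNA. It stood at 74.3, 83.0 and 63.6 CPM with siRNA-2, at 80.4, 82.3 and 69.1 CPM with siRNA-3 and at 67.0, 62.2 and 62.0 CPM with the scrambled siRNA. Every siRNA library lay above every shRNA library, and every siRNA-3 library above every scrambled siRNA library. The share of all genes that part shRNA from siRNA cells in this way was not counted. Between siRNA-3 and its control 21.1% of all genes did not overlap. No pair of groups tested passed, and the NNT siRNA groups were not tested against the shRNA groups. The log2 fold change was 0.27 between the scrambled siRNA and scrambled shRNA (SE 0.10, adjusted p = 0.182). It was 0.21 with siRNA-2 (SE 0.10, adjusted p = 0.28), 0.28 with siRNA-3 (SE 0.10, adjusted p = 0.152) and 0.06 with the shRNA (SE 0.09, adjusted p = 1).

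LIPE, the hormone-sensitive lipase that releases cholesterol from its esters for steroid synthesis (chromosome 19, 42401507 to 42427426, minus strand, GRCh38; 10 exons), stood at 59.3, 81.4, 46.3 and 60.3 CPM with the NNT shRNA and at 58.2, 71.0 and 52.3 CPM with the scrambled shRNA. It stood at 60.8, 55.6 and 62.6 CPM with siRNA-2, at 59.9, 60.9 and 86.0 CPM with siRNA-3 and at 52.1, 67.1 and 98.7 CPM with the scrambled siRNA. The groups overlapped throughout, and the 5-group test had an adjusted p of 0.681. LIPE-AS1, whose exons overlap those of LIPE on the other strand, stood at 2.35 to 4.75 CPM. LIPE log2 fold changes were 0.03 (SE 0.20) with the shRNA, -0.28 (SE 0.21) with siRNA-2 and -0.07 (SE 0.21) with siRNA-3.

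ABCA1, the transporter that loads cholesterol onto lipid-poor apolipoprotein A-I (chromosome 9, 104781002 to 104928237, minus strand, GRCh38; 50 exons), stood at 29.7, 23.7 and 16.9 CPM with siRNA-2, at 23.4, 17.7 and 39.1 CPM with siRNA-3 and at 25.1, 27.9 and 48.2 CPM with the scrambled siRNA. It stood at 25.7, 24.3, 20.3 and 28.4 CPM with the NNT shRNA and at 29.02, 36.2 and 20.8 CPM with the scrambled shRNA. The groups overlapped, and no comparison passed. ABCA1 log2 fold changes were -0.22 (SE 0.26) with the shRNA, -0.52 (SE 0.28) with siRNA-2 and -0.33 (SE 0.28) with siRNA-3, and the siRNA-3 value was -0.71 without siRNA-3 library 30-11 and 0.01 without scrambled library 30-11.

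ABCG1, the transporter that passes cholesterol towards HDL (chromosome 21, 42199689 to 42297244, plus strand, GRCh38; 15 exons), was the scarcest and most variable of the 10, from 1.62 to 11.0 CPM and from 58 to 344 counts a library. It stood at 2.78, 4.36 and 3.03 CPM with siRNA-2, at 4.17, 2.34 and 8.78 CPM with siRNA-3 and at 8.78, 5.07 and 11.0 CPM with the scrambled siRNA. All siRNA-2 libraries were below the scrambled siRNA libraries, where 22.4% of all genes did not overlap, and those of siRNA-3 overlapped them. The scrambled siRNA was itself the high group: the scrambled shRNA libraries stood at 2.71, 3.82 and 2.51 CPM and the NNT shRNA libraries at 1.94, 5.87, 1.62 and 3.86 CPM. ABCG1 log2 fold changes were -1.28 with siRNA-2 (SE 0.45, adjusted p = 0.132), -0.67 with siRNA-3 (SE 0.43, adjusted p = 0.446) and 0.13 with the shRNA (SE 0.43, 95% interval -0.78 to 1.04). Between the scrambled groups ABCG1 was 1.44 higher in siRNA cells (SE 0.45, adjusted p = 0.111). This was called with no filter on low counts (adjusted p = 0.049) and with only those groups in the fit (adjusted p = 0.0217). The 5-group test of ABCG1 had an adjusted p of 0.0696, and of 0.0184 with no filter on low counts.

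SCARB1, LIPE, ABCA1 and ABCG1, 4 of the 10 genes, had the same pair of highest libraries, the scrambled siRNA and siRNA-3 libraries coded 30-11, a pattern picked out after the values were seen. SCARB1 read 2928 and 2698 CPM there against 2558 CPM in the next library, LIPE 98.7 and 86.0 against 81.4 CPM, ABCA1 48.2 and 39.1 against 36.2 CPM, and ABCG1 11.0 and 8.78 against 8.776 CPM. Over the 16 libraries the log2 levels of these genes had pairwise r values of 0.622 to 0.705, and of 0.294 to 0.424 in the 14 libraries without that code. The genes were picked for high values in that pair, so a lower r without it was built into the choice. How many of all genes have the same top pair was not counted. The scrambled siRNA library 30-11 was the shallowest of the 16, at 20148231 gene counts, while the siRNA-3 library 30-11 held 40100812. Over all 15201 genes tested, the deviations of these libraries from their group means had an r of 0.367. This was the highest r among pairs of siRNA libraries from different groups.

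Across comparisons, the shRNA gave no call among the 10 genes, with log2 fold changes of -0.22 to 0.17 and an adjusted p of 1 for each, against 0.0197% of all genes that passed. None of the 10 had an unadjusted p under 0.05 there, against 1.43% of all genes, and no group pair was free of overlap, against 3.19%. With siRNA-2 none of the 10 passed, against 1.97% of all genes, and 4 had an unadjusted p under 0.05, against 18.6%. With siRNA-3 none passed, against 2.12%, and 3 had an unadjusted p under 0.05, against 17.8%. With the mean of both siRNAs none passed, against 0.23%, and 3 had an unadjusted p under 0.05, against 13.1%. Between siRNA-2 and siRNA-3, 2 of the 10 passed, SOAT1 and LIPA, both lower with siRNA-2, where 14.4% of all genes passed and 7.05% passed as lower; those 2 were also the only ones of the 10 whose groups did not overlap, against 31.6% of all genes.

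The median log2 fold change of the 10 genes was 0.01 with the shRNA, -0.20 with siRNA-2, 0.07 with siRNA-3 and -0.20 between siRNA-2 and siRNA-3; over all genes it was 0.01, 0.01, -0.003 and 0.01. Groups did not overlap for 4 of the 10 genes with siRNA-2, where SOAT1, LIPA and ABCG1 were lower and NPC1 higher, against 22.4% of all genes. They did not overlap for 4 with siRNA-3, where SOAT1, LIPA, NCEH1 and NPC1 were higher, against 21.1% of all genes. Both siRNA comparisons share the 3 scrambled siRNA libraries. The shRNA effect and the mean siRNA effect differed for none of the 10 at an adjusted p under 0.05, against 0.00658% of all genes, and none had an unadjusted p under 0.05, against 5.97%. Between the scrambled groups none passed, against 1.74% of all genes, and 3 had an unadjusted p under 0.05, against 16.8%. These were NPC2, NCEH1 and ABCG1, all higher in siRNA cells and without overlap, against 24.2% of all genes without overlap.

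**Figure D3:**
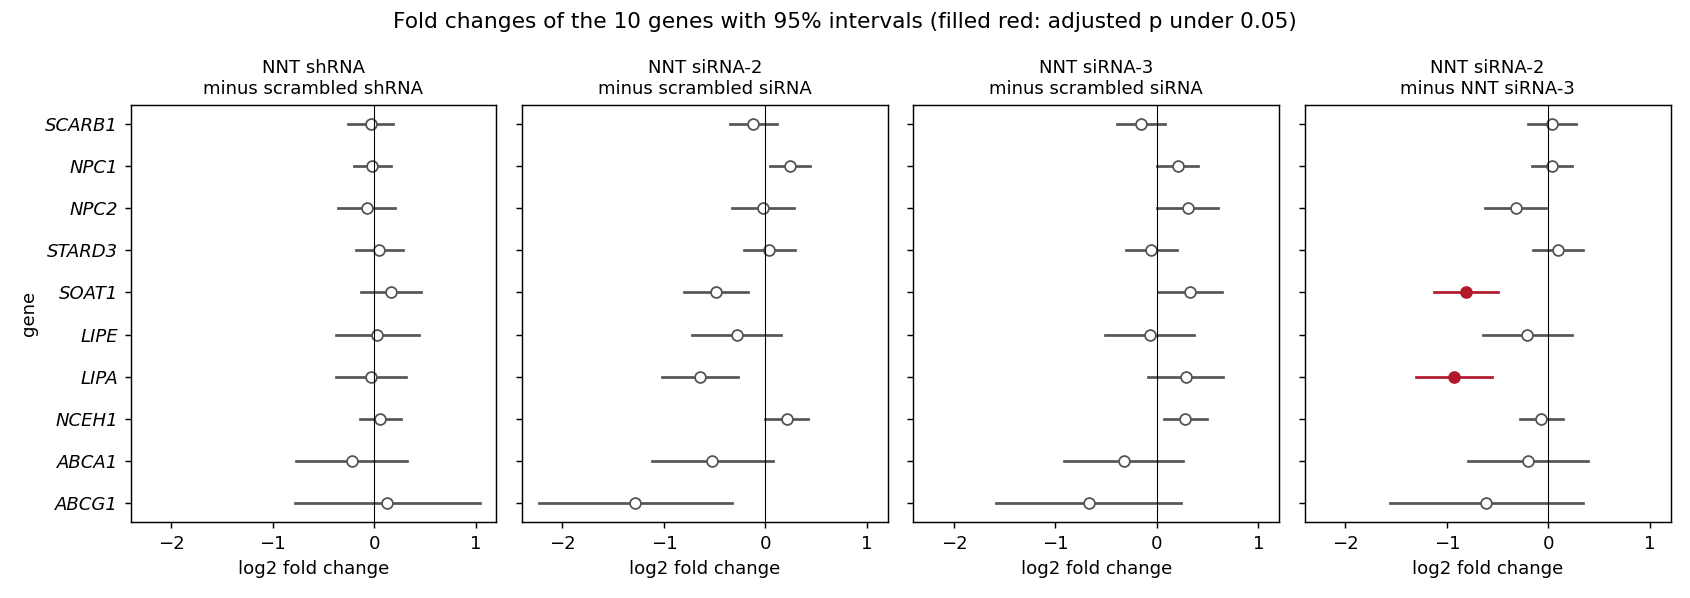
Log2 fold change of each of the 10 genes (points) with its 95% interval (bars) for the NNT shRNA, siRNA-2 and siRNA-3 against their scrambled controls and for siRNA-2 against siRNA-3. Filled red points, adjusted p under 0.05 over all genes tested, are SOAT1 at -0.81 and LIPA at -0.93 in the comparison of the siRNAs.

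Beyond the 10 genes, 68 others of the pathway were listed by role, and 61 were tested; SOAT2, CES1, CIDEC, ABCG4, ABCG5 and ABCG8 were among those too low to test. With the shRNA, with siRNA-3 and with the mean of both siRNAs none passed, and 1, 11 and 7 had an unadjusted p under 0.05, against 1.43%, 17.8% and 13.1% of all genes. With siRNA-2 only SCARB2, a lysosomal membrane protein, passed, against 1.97% of all genes. SCARB2 averaged 237 ± 63.8 CPM under siRNA-2 and 355 ± 21.6 CPM in the siRNA controls (SD, n = 3 each). Its log2 fold change was -0.59 (SE 0.14) with an adjusted p of 0.0344. All siRNA-2 libraries lay below the controls, where 22.4% of all genes did not overlap. Without siRNA-2 library 11-1 neither SCARB2 nor any other of the 61 passed with siRNA-2. Between siRNA-2 and siRNA-3, 7 of the 61 (11.5%) passed, all lower with siRNA-2, against 14.4% of all genes that passed and 7.05% that passed as lower.

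Of 20 tested genes for transport in the lysosome and at membrane contacts, 5 were lower with siRNA-2 than with siRNA-3 and none higher, which is 25% of the list against 14.4% of all genes in either direction and 7.05% as lower. The list's median log2 fold change was -0.07. LAMP2, a membrane glycoprotein of the lysosome, had a log2 fold change of -0.73 (SE 0.13) with an adjusted p of 0.00197, at 216 ± 28.7 against 359 ± 69.5 CPM (SD, n = 3 each). The log2 fold change was -0.64 for SCARB2 (adjusted p = 0.00491), -0.43 for VPS4B, an ATPase that disassembles ESCRT-III (adjusted p = 0.0195), -0.41 for TMEM97, a binding partner of NPC1 (adjusted p = 0.00986), and -0.38 for VAPA, the anchor of contact-site proteins in the endoplasmic reticulum (adjusted p = 0.0129). GRAMD1B, which carries cholesterol from the plasma membrane to the endoplasmic reticulum, differed among the 5 groups (adjusted p = 0.00064). Its level was 289 ± 45.7 CPM with the NNT shRNA (SD, n = 4), 289 ± 25.3 CPM with the scrambled shRNA, 386 ± 9.8 CPM with the scrambled siRNA, 431 ± 49.96 CPM with siRNA-3 and 521 ± 93.7 CPM with siRNA-2 (SD, n = 3 each), and no pair of groups tested passed.

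Of 13 tested genes of ester storage and lipid droplets, 2 were lower with siRNA-2 than with siRNA-3, or 15.4% against 14.4% of all genes in either direction and 7.05% as lower, and the list's median log2 fold change was 0.08. The log2 fold change was -0.57 for CIDEB, a lipid droplet protein (SE 0.14, adjusted p = 0.0118), at 31.8 ± 5.24 against 47.3 ± 3.55 CPM, and -0.38 for HSD17B11, a droplet-bound dehydrogenase (SE 0.11, adjusted p = 0.0314), at 112 ± 5.47 against 146 ± 20.4 CPM (SD, n = 3 each). ABHD5, the activator of the triglyceride lipase PNPLA2, differed among the groups (adjusted p = 0.0283), from 76.4 ± 1.79 CPM with the scrambled shRNA to 94.0 ± 6.39 CPM with siRNA-2. SOAT2, the other cholesterol acyltransferase, had at most 0.0222 CPM in a library, against 241 CPM or more of SOAT1.

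Of the list for lipoprotein uptake 9 genes were tested, and none passed between the siRNAs. CD36, a scavenger receptor for lipids, was lower in scrambled siRNA than in scrambled shRNA cells, by a log2 difference of -0.56 (SE 0.13, adjusted p = 0.0323), at 112 ± 7.87 against 166 ± 3.25 CPM (SD, n = 3 each). Of 11 efflux and liver X receptor genes none passed in any comparison. NR1H3, the liver X receptor alpha, averaged 1.92 ± 0.77 CPM under siRNA-2 and 2.33 ± 0.44 CPM in the siRNA controls, and ABCA7, a lipid transporter, at 54.4 ± 0.37 and 55.9 ± 2.75 CPM (SD, n = 3 each).

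Of 8 genes that deliver cholesterol to, or use it in, the mitochondrion, none passed between any pair of groups tested. The NNT siRNA groups were not tested against the shRNA groups. CYP11A1, which cleaves the cholesterol side chain, differed among the 5 groups (adjusted p = 0.0443), from 293 ± 14.8 CPM with the scrambled shRNA to 408 ± 19.5 CPM with siRNA-3 (SD, n = 3 each), and its log2 difference between siRNA-2 and siRNA-3 was -0.28 (SE 0.12, adjusted p = 0.135). FDX1, its electron donor, averaged 161 ± 10.0 CPM under siRNA-2 and 207 ± 44.0 CPM under siRNA-3 (SD, n = 3 each), which did not pass (adjusted p = 0.176). Over all 61 genes 12 passed the 5-group test, 19.7% against 18.1% of all genes.

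**Figure D4:**
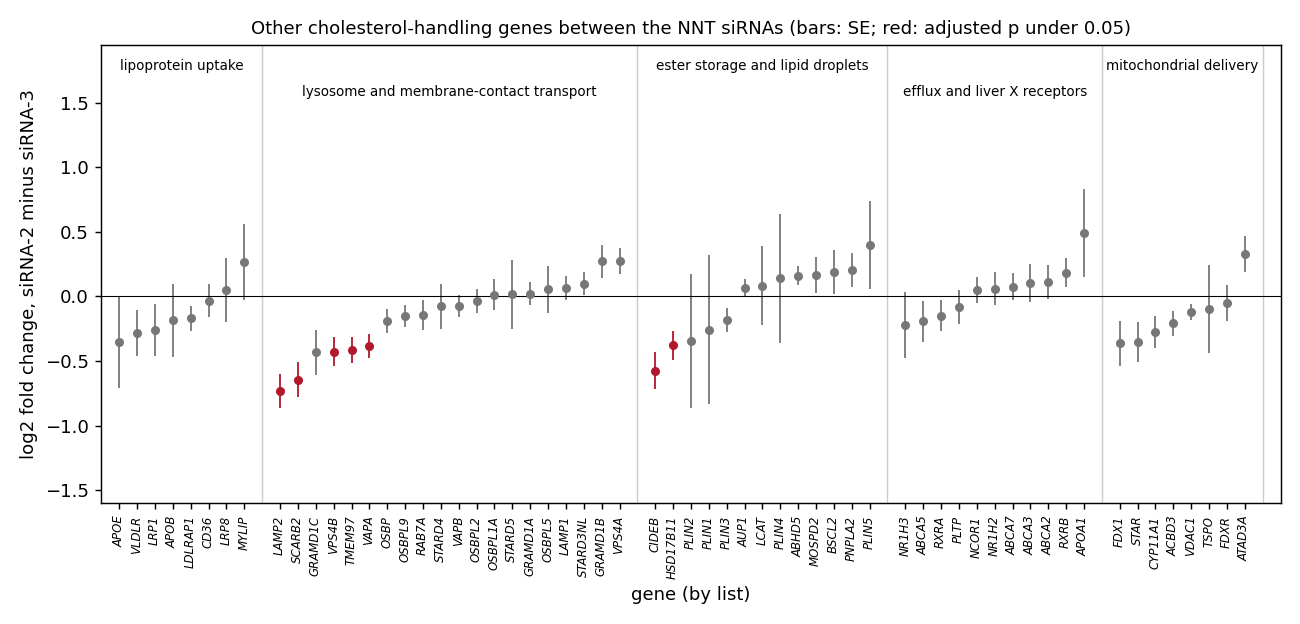
Log2 fold change between siRNA-2 and siRNA-3 (points) with its SE (bars) for the further cholesterol-handling genes tested, 1 of them left out, ordered within 5 lists. The 7 red points, adjusted p under 0.05, are LAMP2, SCARB2, VPS4B, TMEM97 and VAPA of the lysosome and contact list and CIDEB and HSD17B11 of the ester storage list, all below 0.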

How the data were processed

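Stranded libraries of poly(A) RNA were made with a TruSeq kit, per the labels' protocols. The submitters' processing notes name STAR 2.4.2a, HTSeq 0.6.1p1, DESeq2 1.14.1 and the build hg19. The authors deposited whole-number counts per gene, not normalized, in 64 files, 4 lanes for each of 16 libraries. Neither the annotation nor the strand setting of the counting is given in the sources. Exons of NNT, NPC1, NPC2, LIPE and LIPA overlap exons of a gene on the opposite strand in GENCODE. The longest overlap with each such gene was 65 to 369 bases. How reads in those stretches were assigned cannot be told without the strand setting.

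Lanes were summed, since they differed by little more than sampling noise (chi-square per degree of freedom 0.998 to 1.04, against 8.54 to 39 between libraries of a group). Reads in no gene (11.3 to 16.5%), ambiguous reads (1.05 to 1.33%) and multiply aligned reads (7.47 to 8.17%) were left out. edgeR 4.0.16 under R 4.3.3 fitted the 16 libraries together, 1 coefficient for each group, with TMM scaling, the low-count filter at a minimum count of 10, quasi-likelihood tests and Benjamini-Hochberg adjustment over 15201 genes (threshold 0.05). Residual degrees of freedom were 11 and the biological coefficient of variation 0.118. CPM use TMM-scaled totals, and levels per kilobase use the union of exons in GENCODE on GRCh38, the build of all coordinates given. Intervals cover 95%. The fit was tested on simulated counts.

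The 10 genes, the lists and the naming rule were chosen with earlier results of these data known. The text names NNT, the 10 genes, further listed genes called in any of the 7 contrasts, the 2 genes of each list with the smallest 5-group p, and the 3 genes most like SOAT1 or LIPA whose log2 CPM averaged 3 or more. Other names were chosen after values were seen. Values for 1 further gene meeting the naming rule are not reported here.

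Title codes paired the shRNA libraries under the rule that every same-code correlation of deviations from group means exceed 0.1. There were 3 pairs, with r from 0.133 to 0.213, against -0.181 to 0.156 for other pairs. The block changed no call among the 10 genes in shRNA cells, and took the count over all genes from 3 to 1. The siRNA codes gave -0.019 to 0.367 in 4 pairs, against -0.318 to 0.17 in 23 other pairs. Codes 23-5 (r = 0.361) and 30-11 (0.367) exceeded 0.1, while 11-1 (-0.019) and 16-1 (0.014) did not. Under the rule the siRNA codes were therefore not taken as pairs. The main fit held no term for the code, in shRNA or siRNA cells. Alternatives were DESeq2's scaling, no filter, a stricter one (at least 5 CPM in 3 libraries), a fit on the compared groups alone, the code as a block, robust dispersion, DESeq2 1.42.0 and leaving out each library.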

Additional observations from a re-analysis of the deposited data

Results flagged for a closer look

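The effects of siRNA-2 and siRNA-3, each against the same scrambled siRNA libraries, differed by test for 2 of the 10 genes. In that test 14.4% of all genes passed, and 7.05% passed as lower with siRNA-2. The log2 difference between the siRNAs was -0.81 for SOAT1 (SE 0.15, adjusted p = 0.00221 in edgeR) and -0.93 for LIPA (SE 0.18, adjusted p = 0.00272 in edgeR). Every siRNA-2 library was below and every siRNA-3 library above all 3 controls for both genes. Of all genes, 22.4% did not overlap between siRNA-2 and the controls, and 21.1% between siRNA-3 and the controls. Between the siRNAs 31.6% did not overlap. The share of all genes below the controls with siRNA-2 and above them with siRNA-3 was not counted. NNT differed between the siRNAs too, with a log2 fold change of 2.02 for siRNA-2 over siRNA-3 (SE 0.34) and an adjusted p of 0.00111.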

How the results depend on the processing

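Of 1500 values of single genes and counts over all genes recomputed under an alternative, 1375 were unchanged. For a single gene this meant the same direction and side of the threshold, or the same side alone in the 5-group test. For a count it meant a change within a set factor. Of 250 counts of calls among the 10 genes or the further genes, 215 were unchanged by that factor and 35 moved. Among the 10 genes, calls against the siRNA-2 control rose from 0 to 2, SOAT1 and LIPA, with no filter and with DESeq2, and leaving out 1 library gave 0 to 2. Over all genes, leaving out 1 library gave 2 to 619 calls in that comparison, against 299 in the main fit. Between the scrambled groups calls rose from 0 to 1, ABCG1, with no filter and with only the groups compared. Among the 61 further genes, 1 passed with siRNA-2, 2 with DESeq2's scaling, no filter, the stricter filter, the replicate block or robust dispersion, 4 with DESeq2, 0 with only the groups compared, and 0 to 2 without 1 library. With siRNA-3 none passed, 1 with no filter or the block, 2 with DESeq2, and 0 to 2 without 1 library. Between the siRNAs 7 passed, 3 with only the groups compared, 14 with the block, and 3 without siRNA-3 library 11-1 to 8 without siRNA-2 library 11-12. Between the scrambled groups 1 passed, 2 with only the groups compared or DESeq2, and 0 to 2 without 1 library. In the 5-group test 12 passed, and 7 to 12 without 1 library. Over all genes, leaving out 1 library gave 69 to 530 calls with siRNA-3 and 1091 to 2101 between the siRNAs. It gave 32 to 456 between the scrambled groups and 1704 to 2877 in the 5-group test.

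No value that passed changed sign. With the replicate block the sign turned for SCARB1 (0.04) and LIPA (0.009) with the shRNA, LIPE with siRNA-2 (0.047) and between the siRNAs (0.11), and NPC2 (-0.033) and STARD3 (0.054) with the mean of both siRNAs; NPC2 between the siRNAs was called with the block (-0.43, adjusted p = 0.0127), and no other call among the 10 genes changed. Codes 2-3 and 11-12 occur in 1 library each, so the block in effect leaves these libraries out. Leaving out 1 library also turned the sign of small values. With the shRNA these were SCARB1 (-0.077 to 0.04), NPC1 (-0.054 to 0.037), LIPE (-0.13 to 0.16), LIPA (-0.149 to 0.083), ABCG1 (-0.27 to 0.36) and STARD3 (-0.015 to 0.118). With siRNA-2 it was NPC2 (-0.197 to 0.095), with siRNA-3 LIPE (-0.265 to 0.206), ABCA1 (-0.71 to 0.011) and STARD3 (-0.215 to 0.061), and with the mean of both SOAT1 (-0.158 to 0.024), LIPE (-0.365 to 0.1) and STARD3 (-0.089 to 0.05). Between the siRNAs these were SCARB1 (-0.028 to 0.157), NPC1 (-0.054 to 0.1), NCEH1 (-0.165 to 0.023), STARD3 (-0.024 to 0.253), ABCA1 (-0.42 to 0.18) and ABCG1 (-0.949 to 0.045). For the shRNA effect minus the siRNA effect they were LIPE (-0.07 to 0.395), ABCA1 (-0.13 to 0.41) and STARD3 (-0.006 to 0.139), and between the scrambled groups LIPE (-0.015 to 0.45) and ABCA1 (-0.11 to 0.43). The cause was not tested. With 58 to 344 counts a library, ABCG1 had the widest intervals of the 10 genes.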

Other observations

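Several genes known from lipid-storing or steroid-making cells were listed at low levels in all 16 libraries, and were picked out after their values were seen. PLIN2, a coat protein of lipid droplets, averaged 0.348 CPM, APOE 1.5 CPM and TSPO, a protein of the outer mitochondrial membrane, 0.606 CPM, where PLIN3 averaged 114 CPM and STAR 426 CPM. No source used here states the strand setting or the annotation of the counting, and whether these values stand for low expression or for how reads were assigned was not tested.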
